A study of Arabidopsis thaliana with 8 samples.

Results

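NOL, SGRL and PORB are 3 genes of chlorophyll turnover in Arabidopsis thaliana and were chosen by locus. They are the genes of the loci AT5G04900 (NOL), AT1G44000 (SGRL) and AT4G27440 (PORB), and each has 1 probe set in the platform's table of probe genes, which gives a probe set of its own to 13286 genes. All 3 passed the filter of log2 5 on at least 2 of the 8 arrays, as did 17388 of 22746 probe sets that are not controls. PORB passed through the seedling arrays alone.

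The study used 8 Affymetrix arrays, with 2 per group, to find genes that respond early to ORE1, a NAC transcription factor that promotes leaf senescence. Seedlings of the estradiol-inducible line ORE1-IOE, in the Col-0 background and 2 weeks old, received either 10 µM estradiol for 2 h or a mock treatment with 0.1% ethanol for 2 h. Both seedling groups carry the same inducible construct and were harvested whole, so each array averages over shoots and roots. Protoplasts of mesophyll cells came from Col-0 plants at 5 weeks of age. They either expressed a 35S:ORE1 construct transiently for 6 h or were labelled WT, and for WT neither a harvest time nor a mock transfection is given in the sources used here. The labels do not say that replicates came from separate plants or preparations, so p-values measure the spread between arrays, which may be technical.

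Chlorophyll is made in the plastid from glutamate through protoporphyrin and protochlorophyllide, and in flowering plants the reduction of protochlorophyllide to chlorophyllide needs light. Its breakdown in senescing leaves begins with the conversion of chlorophyll b to chlorophyll a and the removal of magnesium, after which the ring is opened and exported to the vacuole as colourless products. PORB encodes a light-dependent protochlorophyllide oxidoreductase, on the synthesis side. NOL (NYC1-LIKE) encodes a chlorophyll b reductase that starts chlorophyll b breakdown, and ORE1 has been reported to act on this gene. SGRL (STAY-GREEN-LIKE) encodes a relative of the stay-green magnesium dechelatases and acts on the breakdown side.

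Seedling arrays had medians of 6.71 to 6.79 over all probe sets. Protoplast arrays had medians of 3.34 to 3.54, and 39.8% to 41.6% of their values were no more than 0.1 above the array's lowest one. Levels were not set against each other across 2 scales that differ this much. The protoplast arrays of one number have the same lowest value and many exactly equal values (13500 for number 1 and 11130 for number 2), as if each pair had been processed by itself. Changes within same-numbered pairs are therefore given for NOL, SGRL and PORB, and for some of the other genes. The green-tissue marker RCA lay at 8.86 to 9.41 on the protoplast arrays. The 2 root-hair genes EXPA7 and EXPA18 and the 2 guard-cell genes FAMA and GC1 lay within 0.1 of the lowest value on all 4 of them, and no epidermis or vasculature marker of the lists has a listed probe set. ORE1 has no listed probe set and was not analysed here. Beside these, 2 reported ORE1 targets were read. They were chosen with earlier results of these data known, so they do not check the labels independently. SWEET15, a sugar exporter gene, had log2 values of 11.50 and 13.13 in 35S:ORE1 protoplasts, against 2.56 and 3.78 in WT protoplasts. In WT it lay 0.37 and 1.60 above the lowest value, so the size of its rise is uncertain (limma adjusted p = 0.000648). From the protoplast arrays alone the limma adjusted p was 0.107. It was 0.00428 over the probe sets that reach log2 5 on at least 2 of these arrays, a filter added after the data were seen. SINA1 had log2 values of 6.38 and 5.99 in 35S:ORE1 protoplasts, with both WT arrays at the lowest value. Its mean change was 4.00 ± 0.42 (SE, log2, limma adjusted p = 0.00423), and the size of this rise is uncertain too. In seedlings neither passed, with changes of 2.08 ± 0.63 for SWEET15 (SE, log2, limma adjusted p = 1) and 1.81 ± 0.42 for SINA1 (adjusted p = 0.828).

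**Figure D1:**
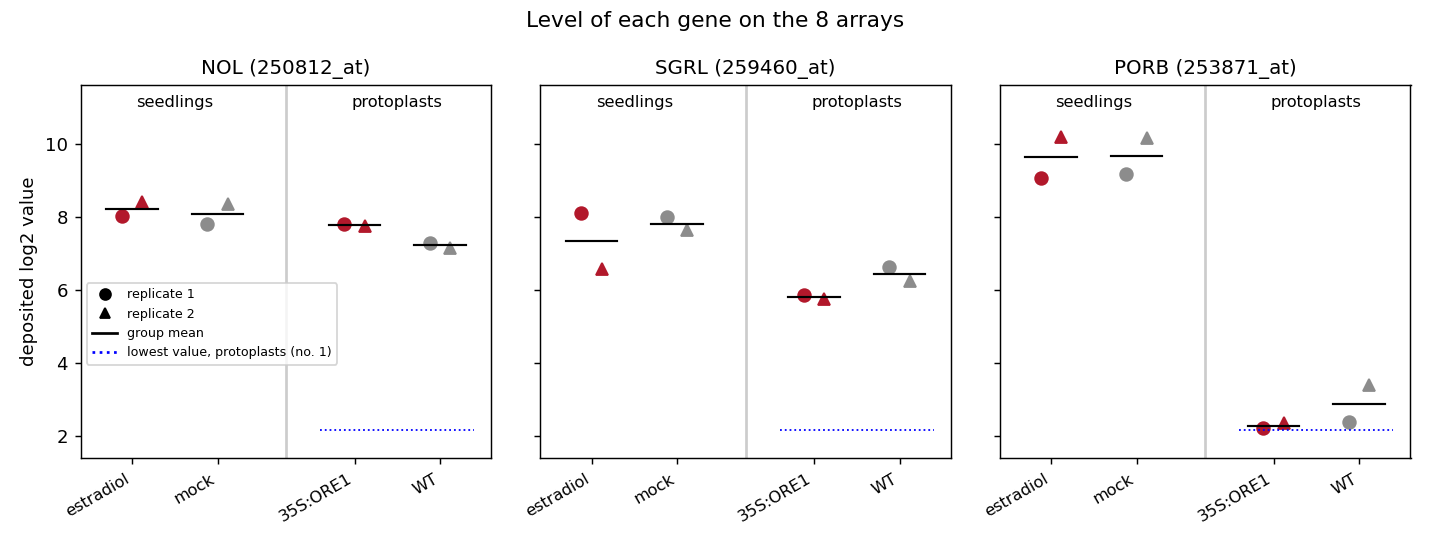
Deposited log2 values (vertical axis) of NOL, SGRL and PORB on each of the 8 arrays, with circles for replicate 1, triangles for replicate 2, black bars for group means and a dotted line at the lowest value of the protoplast arrays of number 1 (2.19). NOL lies higher in both 35S:ORE1 arrays than in both WT arrays, SGRL lies lower there, and PORB lies near the lowest value in protoplasts.

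The first question was whether chlorophyll breakdown genes moved when ORE1 was raised. NOL was higher in 35S:ORE1 protoplasts than in WT protoplasts by a small margin and within both pairs, but did not pass the test over all probe sets. Its probe set, 250812_at, had log2 values of 7.80 and 7.74 in 35S:ORE1 protoplasts, against 7.29 and 7.15 in WT protoplasts. The groups did not overlap, as was the case in this direction for 10.8% of all tested probe sets. The protoplast shares given for NOL and SGRL are over all tested probe sets. Of these, 10136 reach log2 5 on at least 2 protoplast arrays, and shares among them were not computed. NOL averaged 7.77 ± 0.04 in 35S:ORE1 protoplasts and 7.22 ± 0.10 in WT protoplasts (SD, n = 2 each). The change was 0.51 within pair 1 and 0.60 within pair 2, so the pairs differed from each other by far less than the groups did. The mean change of 0.55 ± 0.22 (SE, log2) is 1.47-fold, with a 95% interval of 0.02 to 1.08 on the log2 scale (limma, unadjusted p = 0.0428, adjusted p = 0.371). It was 0.38 after each array was centred on its median (unadjusted p = 0.159) and 0.41 after quantile normalization (unadjusted p = 0.217), both from limma.

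In protoplasts NOL passed in 1 of 17 alternative fits. When the replicate number entered the fit as a block, the change was the same and its SE was 0.07, which gave a limma adjusted p of 0.0357. When the protoplast arrays were fitted alone, the SE was 0.07 as well, and the adjusted p was 0.159. That fit includes the many probe sets near the lowest value. Over the 10136 probe sets that reach log2 5 on at least 2 protoplast arrays, a set of probe sets chosen after the data were seen, the SE was 0.17 and the adjusted p 0.206. With the block 1343 of 17388 tested probe sets passed in protoplasts, against 656 without it. By the test without a block 3.00% of all tested probe sets were higher past the threshold in protoplasts and 0.771% lower, and 12.2% had an unadjusted p under 0.05. A change upward by at least as much as that of NOL was found for 6.45%.

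In seedlings NOL differed little between the treatments. It had log2 values of 8.03 and 8.42 with estradiol, against 7.80 and 8.34 with mock treatment, and these ranges overlapped. The estradiol array was the higher one in both pairs, by 0.23 in pair 1 and by 0.08 in pair 2. The gap between the arrays of number 2 and number 1 was larger than either, at 0.38 with estradiol and 0.54 with mock treatment. The mean change of 0.16 ± 0.22 (SE, log2, n = 2 per group) had a 95% interval of -0.37 to 0.68 (limma adjusted p = 1), so a rise as large as the one in protoplasts lies within it. Its sign turned without estradiol replicate 2 (-0.04) and without mock replicate 1 (-0.11). The share of probe sets past the threshold in seedlings was 0.00575% higher and 0% lower, with 4.13% at an unadjusted p under 0.05.

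SGRL had lower values in 35S:ORE1 protoplasts than in WT protoplasts in both pairs, opposite to NOL, and did not pass the test. Its probe set, 259460_at, had log2 values of 5.87 and 5.75 in 35S:ORE1 protoplasts, against 6.63 and 6.24 in WT protoplasts. Again the groups did not overlap, which held in this direction for 12.6% of all tested probe sets. SGRL averaged 5.81 ± 0.08 in 35S:ORE1 protoplasts and 6.44 ± 0.28 in WT protoplasts (SD, n = 2 each). Within pair 1 the change was -0.76 and within pair 2 it was -0.49. The mean change was -0.63 ± 0.47 (SE, log2, 0.648-fold), with a 95% interval of -1.76 to 0.50 (limma adjusted p = 0.941). This SE is shared by both systems, and the estradiol arrays were far apart for SGRL. From the 4 protoplast arrays alone the SE was 0.18 and the adjusted p 0.415. Of all tested probe sets 4.19% changed downward by at least as much as SGRL.

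The seedling change of SGRL rested on 1 array. They were 8.09 and 6.58 with estradiol, against 8.01 and 7.63 with mock treatment. Estradiol replicate 2 was the lowest of the 4 arrays, while estradiol replicate 1 was the highest. The change was thus 0.09 within pair 1 and -1.04 within pair 2. The group averages were 7.34 ± 1.07 with estradiol and 7.82 ± 0.27 with mock treatment (SD, n = 2 each), and the mean change was -0.48 ± 0.47 (SE, log2, 95% interval -1.61 to 0.65, limma adjusted p = 1). Without estradiol replicate 2 it was 0.28, without estradiol replicate 1 it was -1.23, and without mock replicate 1 it was -0.29. After quantile normalization of all arrays it was -0.99 (adjusted p = 0.953). In seedlings 2.39% of all tested probe sets changed downward by at least as much as SGRL.

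**Figure D2:**
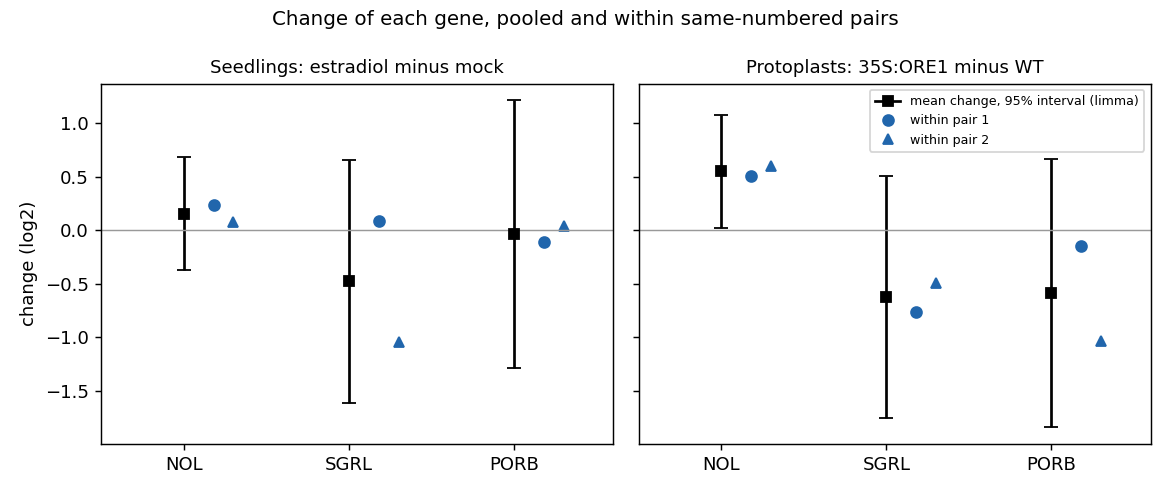
Change on the log2 scale (vertical axis) of NOL, SGRL and PORB in seedlings (estradiol minus mock) and protoplasts (35S:ORE1 minus WT), with squares and bars for the mean change and its 95% interval from limma and blue symbols for the change within each same-numbered pair. In protoplasts both pairs lie above 0 for NOL (0.51 and 0.60) and below 0 for SGRL (-0.76 and -0.49), whereas the seedling pairs of SGRL lie on opposite sides of 0.

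PORB, the synthesis gene, had nearly equal averages in both seedling treatments and near-lowest values in protoplasts. Its probe set, 253871_at, had log2 values of 9.07 and 10.18 with estradiol, against 9.18 and 10.14 with mock treatment. The ranges overlapped almost fully, and the change was -0.11 within pair 1 and 0.04 within pair 2. PORB averaged 9.63 ± 0.79 with estradiol and 9.66 ± 0.68 with mock treatment (SD, n = 2 each). The mean change of -0.04 ± 0.52 (SE, log2, limma adjusted p = 1) had a 95% interval of -1.29 to 1.22. That interval still spans a change of more than 2-fold either way. In the blocked fit the SE was 0.24. The sign of so small a mean turned without estradiol replicate 1 (0.52) and without mock replicate 2 (0.44).

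In protoplasts PORB had log2 values of 2.24 and 2.36 with 35S:ORE1, against 2.38 and 3.39 in WT. These lay 0.05 and 0.18 above the lowest value of the array with 35S:ORE1, and 0.19 and 1.22 above it in WT. No protoplast array reached log2 5, and WT replicate 2 stood apart from the other 3. The change was -0.14 within pair 1 and -1.03 within pair 2. The mean change was -0.59 ± 0.52 (SE, log2, 95% interval -1.84 to 0.66, limma adjusted p = 1). It was -0.08 without WT replicate 2 and -1.10 without WT replicate 1, so its size rests on 1 array. Near the lowest value a change can be compressed, and a low level of a transcript in a sample of many cells cannot be told apart from its presence in few of them.

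The change itself was compared between the systems as the seedling change minus the protoplast change. For NOL the difference was -0.40 ± 0.31 (SE, log2, 95% interval -1.14 to 0.35, limma adjusted p = 0.976), and for SGRL 0.15 ± 0.66 (95% interval -1.45 to 1.75, adjusted p = 1). Neither passed, where 1.62% of all tested probe sets did, and at an unadjusted p under 0.05 neither passed either, against 8.78% of all. For PORB the fitted difference was 0.55, which is no measure of how the systems differ, since its protoplast values lay near the lowest value of the arrays. For SGRL the sign turned after quantile normalization (-0.50) and without estradiol replicate 1 (-0.61), mock replicate 2 (-0.04) or WT replicate 1 (-0.05). For NOL it was -0.25 after each array was centred on its median and -0.20 after quantile normalization. The systems differ in tissue, in time, in how ORE1 was raised and in array processing, and these cannot be told apart.

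NOL and SGRL are 2 of 14 genes in the list of chlorophyll breakdown genes, and no other gene of that list has a listed probe set. The partner reductase gene NYC1, the stay-green genes SGR1 and SGR2, the pheophytinase gene PPH and the oxygenase gene PAO were therefore not analysed here.

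PORB was set beside the other synthesis genes. Of 31 genes in that list 13 have a listed probe set and 12 were tested, and none passed limma's adjusted threshold in either system. At an unadjusted p under 0.05 there were 2 of 12 in protoplasts, CHLP and HEME2, where 12.2% of all tested probe sets had such a p, and 0 of 12 in seedlings, against 4.13% of all. Of the 12, PORB, CHLM, CHLI2 and HEMB2 passed the filter through the seedling arrays and did not reach log2 5 on 2 protoplast arrays. The other 8 did, and 7 of these 8 had a lower mean with 35S:ORE1, against 52.9% of the 10136 probe sets that reached log2 5 there. Their median change was -0.24 on the log2 scale, against -0.02 over those probe sets. Centring each array on its median moved the median of all protoplast changes by -0.17, and the 8 genes then had a median of -0.41. After quantile normalization their median was -0.22, against -0.05 over all tested probe sets. That set is not limited to probe sets that reached log2 5 on protoplast arrays, unlike the set used without scaling. Under either scaling 7 of 8 were lower, but the share of all probe sets that were lower is not given for these scalings.

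The largest protoplast changes of the list were those of CHLP and HEME2, and they ran in opposite directions. CHLP (AT1G74470) encodes the geranylgeranyl reductase that makes the phytol tail of chlorophyll. It had log2 values of 6.30 and 6.27 in 35S:ORE1 protoplasts, against 7.21 and 7.55 in WT protoplasts. The groups did not overlap, as in this direction for 12.6% of all tested probe sets, with changes of -0.91 in pair 1 and -1.28 in pair 2. The mean change was -1.09 ± 0.26 (SE, log2, limma adjusted p = 0.0946, or 0.0253 in the blocked fit). HEME2, a uroporphyrinogen decarboxylase gene of the shared route to haem and chlorophyll, had 6.80 and 6.48 in 35S:ORE1 protoplasts, against 5.73 and 5.99 in WT protoplasts. Here both pairs were higher, by 1.08 and 0.48, and the mean change was 0.78 ± 0.16 (adjusted p = 0.0580).

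The other protoplast changes of synthesis genes were smaller. HEME1, which encodes the other uroporphyrinogen decarboxylase, changed by -0.54 ± 0.33 (SE, log2). LIL3.1, whose product anchors the geranylgeranyl reductase, changed by -0.48 ± 0.31. LIL3.1 had equal values in pair 1 and a change of -0.97 in pair 2, so its mean change rests on WT replicate 2 (7.30). CHLM, a methyltransferase gene of the magnesium branch, changed by -0.45 ± 0.26, with -0.90 in pair 1 and equal values in pair 2. The early-pathway genes HEMB1 (-0.25), HEMA2 (-0.15) and GSA1 (-0.11) and the gene LIL3.2 (-0.23) changed by less. For HEMA2 the pairs had opposite signs, at -0.36 in pair 1 and 0.06 in pair 2. HEMB2 changed by -0.07, near the lowest value of the arrays, and CHLI2, also near it, had equal values within each pair. HEMF2 was not tested, since it stayed under log2 5 on all arrays.

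In seedlings 5 of the 12 synthesis genes had a higher mean with estradiol and 7 a lower one, with a median of -0.04 against 0.02 over all tested probe sets. GSA1, a glutamate-1-semialdehyde aminotransferase gene, had the largest of these changes, at 0.30 ± 0.13 (SE, log2, limma unadjusted p = 0.0555, adjusted p = 1), and was higher by 0.23 in pair 1 and 0.36 in pair 2. CHLP changed by -0.14 ± 0.26 and HEME2 by -0.13 ± 0.16. The change in seedlings minus that in protoplasts was 0.96 ± 0.37 for CHLP (adjusted p = 0.502) and -0.91 ± 0.22 for HEME2 (adjusted p = 0.181).

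**Figure D3:**
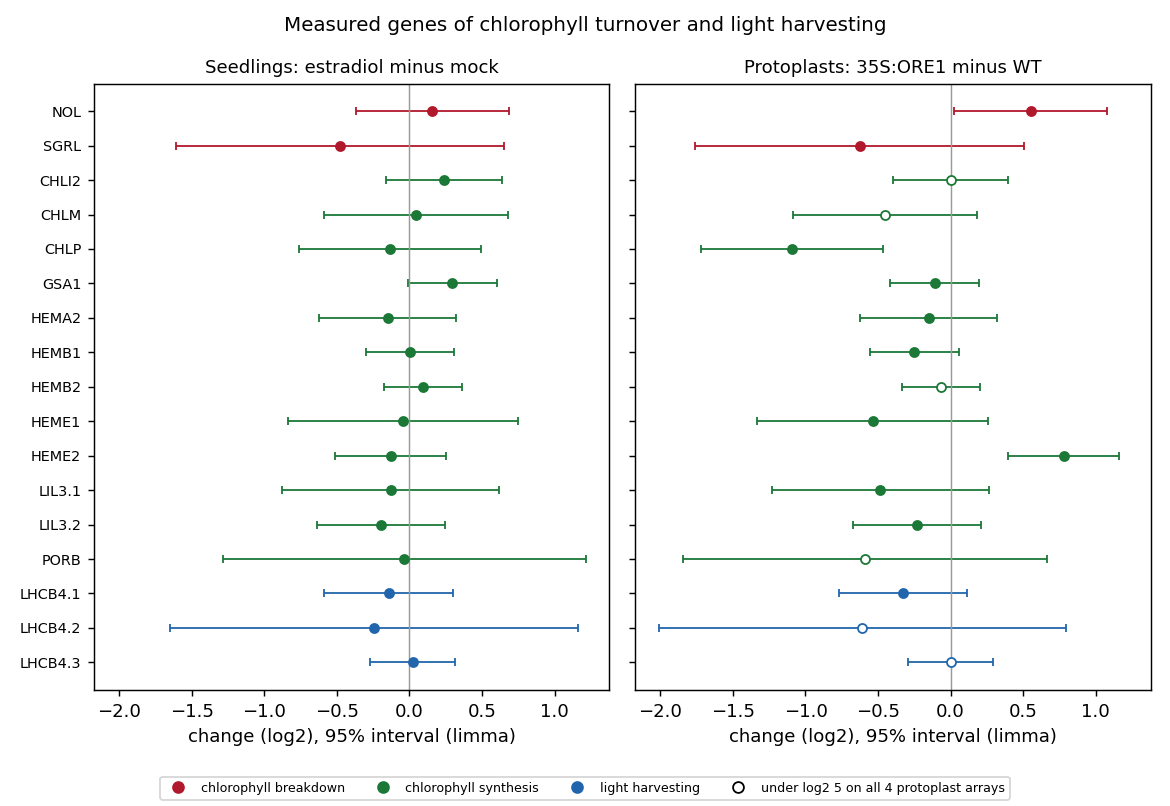
Change on the log2 scale with its 95% interval from limma (horizontal axis) for the 17 tested genes of chlorophyll breakdown, chlorophyll synthesis and light harvesting, in seedlings (estradiol minus mock) and protoplasts (35S:ORE1 minus WT), with open symbols for genes under log2 5 on all 4 protoplast arrays. In protoplasts CHLP lies at -1.09, and HEME2 and NOL lie above 0.

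Of the 18 light-harvesting genes, whose products bind the chlorophyll, 3 have a listed probe set and none passed, also at an unadjusted p under 0.05. In 35S:ORE1 protoplasts LHCB4.1 changed by -0.33 ± 0.18 and LHCB4.2 by -0.61 ± 0.58 (SE, log2). LHCB4.2 stayed under the log2 level of the filter on every protoplast array. It had 4.22 and 3.32 in 35S:ORE1 protoplasts, against 4.44 and 4.32 in WT protoplasts. Its change was -0.21 in pair 1 and -1.01 in pair 2, so its size rests mainly on 35S:ORE1 replicate 2. LHCB4.3 lay within 0.1 of the lowest value on all protoplast arrays. RCA changed by -0.42 ± 0.22 in 35S:ORE1 protoplasts (limma adjusted p = 0.635), with -0.52 in pair 1 and -0.32 in pair 2. This green-tissue marker thus had lower values, as had SGRL, CHLP and, near the lowest value, PORB. NOL and HEME2 had higher values there. The part of RCA in these values was not tested. Of the 15 regulator genes of the chlorophyll pathway, the ethylene-signalling factor gene EIN3 (0.14 ± 0.19 in protoplasts, -0.24 ± 0.19 in seedlings) and the bZIP factor gene EEL (0.08 ± 0.22 and 0.19 ± 0.22) have a listed probe set, and neither passed. In protoplasts EEL lay only 0.06 to 0.57 above the lowest value, with 2 arrays within 0.1 of it. The list of 4 genes of the haem branch has none.

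The seedling arrays differed by number more than by treatment for PORB. Arrays of number 2 were higher than those of number 1 by 1.11 with estradiol and by 0.96 with mock treatment, against a treatment change of -0.04. A gap of at least 0.9 in both groups, a bound chosen after the values of PORB were seen, was found for 94 of 17388 tested probe sets, or 0.541%. The light-harvesting gene LHCB4.2 had gaps of 0.98 with estradiol and 1.5 with mock treatment. CHLP (0.57 and 0.51), RCA (0.49 and 0.43) and NOL (0.38 and 0.54) had smaller gaps in the same direction. SGRL had gaps of -1.51 with estradiol and -0.38 with mock treatment, opposite to those of PORB. LIL3.1 (-0.48 and -0.29) also lay lower on the arrays of number 2. Across protoplast arrays the gap of PORB was 0.12 with 35S:ORE1 and 1.01 in WT, and that of NOL was -0.06 with 35S:ORE1 and -0.15 in WT.

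**Figure D4:**
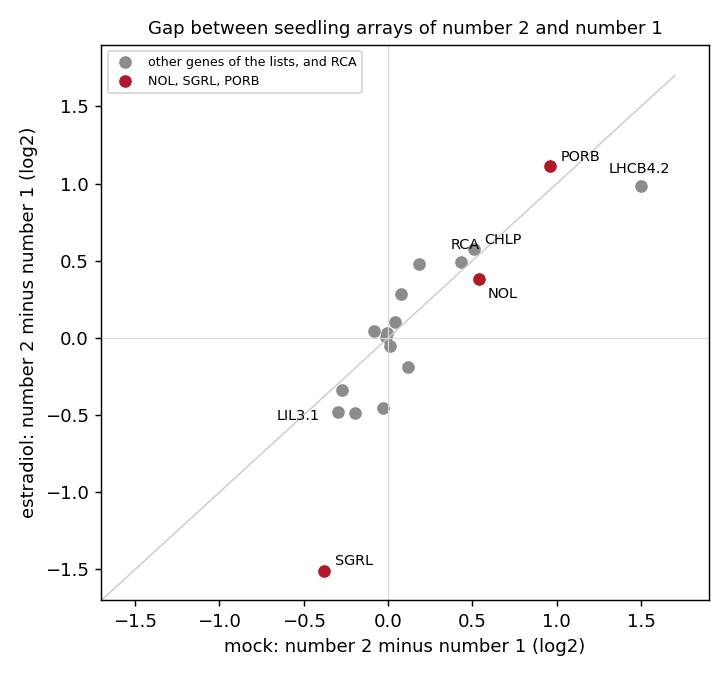
Seedling array of number 2 minus that of number 1 on the log2 scale, with estradiol (vertical axis) against mock treatment (horizontal axis), for the tested genes of the 3 lists and RCA, with the line of equal gaps. PORB lies near the line, at 1.11 with estradiol and 0.96 with mock treatment, and SGRL lies far below it, at -1.51 with estradiol and -0.38 with mock treatment.

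Genes with a pattern like that of each gene were ranked by Pearson's r over the 8 arrays, after the mean of the 4 arrays of its system had been taken from each value. The arrays share their groups and numbers, so r is a description only. Among 9684 other tested probe sets with 1 listed gene, those most like NOL were AT2G02370 (r = 0.982), AT5G25560 (r = 0.981) and AT3G46450 (r = 0.978), and 37 had an r of at least 0.9. AT2G02370 changed by 0.62 in protoplasts and 0.04 in seedlings, AT5G25560 by 0.51 and 0.13, and AT3G46450 by 0.44 and 0.15. Most like SGRL were AT5G24170 (r = 0.984), AT5G54170 (r = 0.974) and AT2G28510 (r = 0.963), each with its lowest seedling value on estradiol replicate 2. Most like PORB were AT4G14350 (r = 0.980), AT4G09620 (r = 0.974) and AT4G13180 (r = 0.968), which were all higher on both seedling arrays of number 2, by 0.39 to 0.69. For SGRL and for PORB 30 probe sets reached an r of 0.9.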

How the data were processed

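The authors deposited 1 log2 expression value per probe set and array. GCRMA and RMA are named in the submitters' processing notes, but no versions and not which arrays each was applied to. Names came from the platform's probe table through Entrez IDs matched to locus tags. The 22810 probe sets comprise 64 controls, 13513 with 1 gene (13436 matched), 503 with several and 8730 that are not listed. The test was limma 3.58.1 under R 4.3.3 on probe sets reaching log2 5 on at least 2 of 8 arrays (lmFit, eBayes, two-sided, Benjamini-Hochberg over all 17388, threshold 0.05). The 4 groups entered 1 model with no block, with 4 residual degrees of freedom and 2.25 from the prior, so both contrasts of a probe set share an SE. The code was tested on simulated data. Each group has 2 arrays, and their number limits the precision. Named were the 3 genes, every listed gene of the pathway lists and the 3 genes most like each. The genes and lists were chosen with earlier results of these data known. Alternatives were another scaling, filter, spread estimate or set of arrays, a replicate block and leaving out each array. Sequences and coordinates were not used here.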

Additional observations from a re-analysis of the deposited data

How the results depend on the processing

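Under 15 to 17 alternatives each, no change or difference of changes of NOL, SGRL or PORB passed the threshold, except the protoplast change of NOL with the replicate number as a block (0.55, limma adjusted p = 0.0357), where otherwise its adjusted p was 0.159 to 0.942. Without each array in turn, where a lone array is assumed to vary like the other groups, the protoplast change was 0.48 to 0.63 for NOL, -0.82 to -0.43 for SGRL and -1.10 to -0.08 for PORB. The seedling change was then -0.11 to 0.42 for NOL, -1.23 to 0.28 for SGRL and -0.59 to 0.52 for PORB, and the difference of the changes -0.66 to -0.13, -0.61 to 0.90 and -0.00296 to 1.11. That difference was -0.50 for SGRL after quantile normalization. With the block 1 of 2 tested breakdown genes (NOL) and 1 of 12 tested synthesis genes (CHLP) were called in protoplasts, against 0 and 0 without it. Over all 17388 tested probe sets 1343 were called there with the block, against 656 without it.

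Over all probe sets 1 was called in seedlings, with 9 after quantile normalization and 0 with the block, in a fit to 4 arrays, with a trend and without any 1 array. In protoplasts it was 656, with 397 after quantile normalization, 1343 with the block, 145 and, with a filter on protoplast arrays added after the data were seen, 431 from 4 arrays, and 376 to 528 without 1 array. For the difference it was 281, with 187, 487 with the block and 130 to 250 without 1 array. The cause was not tested. Same-numbered arrays deviated together (r = 0.656 in seedlings and 0.787 in protoplasts, across probe sets), but no label gives the number as a batch. The block leaves 2 residual degrees of freedom.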
